A study of Mus musculus with 9 samples.

Results

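Claudins and 2 partner proteins of the tight junction were examined in the newborn mouse esophagus with and without the transcription factor p63. The set held 10 genes: the claudins Cldn1, Cldn3, Cldn4, Cldn6, Cldn7, Cldn8, Cldn18 and Cldn23, occludin (Ocln) and zonula occludens protein 3 (Tjp3). They were found as the non-control probes that carry these gene names on the array, 12 probes in all, out of 28104 gene names and 41174 probes. Cldn1 and Ocln had 2 probes each and the other 8 genes had 1. Of the 12 probes 11 gave a sample signal well above background on 2 or more arrays, so that all 10 genes could be tested; the exception was a probe in the coding part of Ocln.

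Total RNA of the esophagus of newborn mice (P0, background strain C57BL/6J) was compared in 3 groups: wild type (n = 4), p63-/- (n = 3) and p63-/- with a Cdx2 transgene under the Villin promoter (n = 2), a promoter known from intestinal epithelium. The labels number the last group's replicates out of more arrays than the 2 analysed here. No group carried the Cdx2 transgene with p63 intact, so the transgene could be compared only within the knockout. Each sample was labelled with Cy5 and hybridised with Cy3-labelled Universal Mouse Reference RNA, a pool from 11 mouse cell lines, and the measure is the log2 ratio of sample over reference unless the sample channel is named. The labels call the replicates biological, so the p-values measure the spread between these samples. Each genotype was hybridised and scanned on a slide of its own, and slide and genotype cannot be told apart.

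Tight junctions are the uppermost contacts between neighbouring epithelial cells and close the gap between them. Claudins span the membrane, and their outer loops pair across the gap and determine which ions can pass. Occludin is a further membrane protein of the same strands, and the zonula occludens proteins bind both kinds on the inside and tie them to actin. In stratified squamous epithelium such as that of the esophagus the tight junctions lie in the upper, differentiated layers. p63, encoded by Trp63, is needed for stratified epithelia to form, and Cdx2 is a transcription factor of intestinal epithelium.

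The labels were first compared with the targeted gene. The Trp63 log2 ratio was 3.53, 3.79, 4.35 and 4.14 on wild type arrays 1 to 4, 2.74, 2.73 and 2.74 without p63, and 3.37 and 3.09 where Cdx2 was added. It was lower in the knockout by 1.22 on the log2 scale (log2 difference -1.22, SE 0.18, limma adjusted p = 0.0213) but the signal was not gone. With Cdx2 the Trp63 difference from wild type was -0.72 and was not called (SE 0.21, limma adjusted p = 0.0955). The sources used here do not give which part of the gene was deleted. One label of wild type replicate 4 names p63-/- while its title and genotype name wild type; its Trp63 ratio lay within the range of the other wild type arrays. No array gave a Cdx2 signal well above background. Between 30038 and 33249 probes per array had a sample signal that was.

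The RNA was that of tissue, not of sorted epithelium. All 7 markers of endothelium, all 7 of smooth muscle, all 7 of skeletal muscle, all 7 of fibroblasts and all 10 of airway and lung were well above background on every array. The log2 summed signal of the 7 basal squamous markers was 18.02 to 18.33 in wild type, 15.65 to 16.07 without p63 and 15.65 to 15.88 where Cdx2 was added, and none of the 7 was below background throughout. That of the 9 suprabasal squamous markers was 14.90 to 15.32, 11.44 to 11.79 and 11.36 to 12.66 in the same order. For the 4 simple epithelium keratins the ranges were 17.45 to 18.61, 16.94 to 17.42 and 16.93 to 17.96. In such bulk RNA, fewer cells of a type and less RNA per cell cannot be told apart, and the part of these shifts in the results below was not tested.

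**Figure D1:**
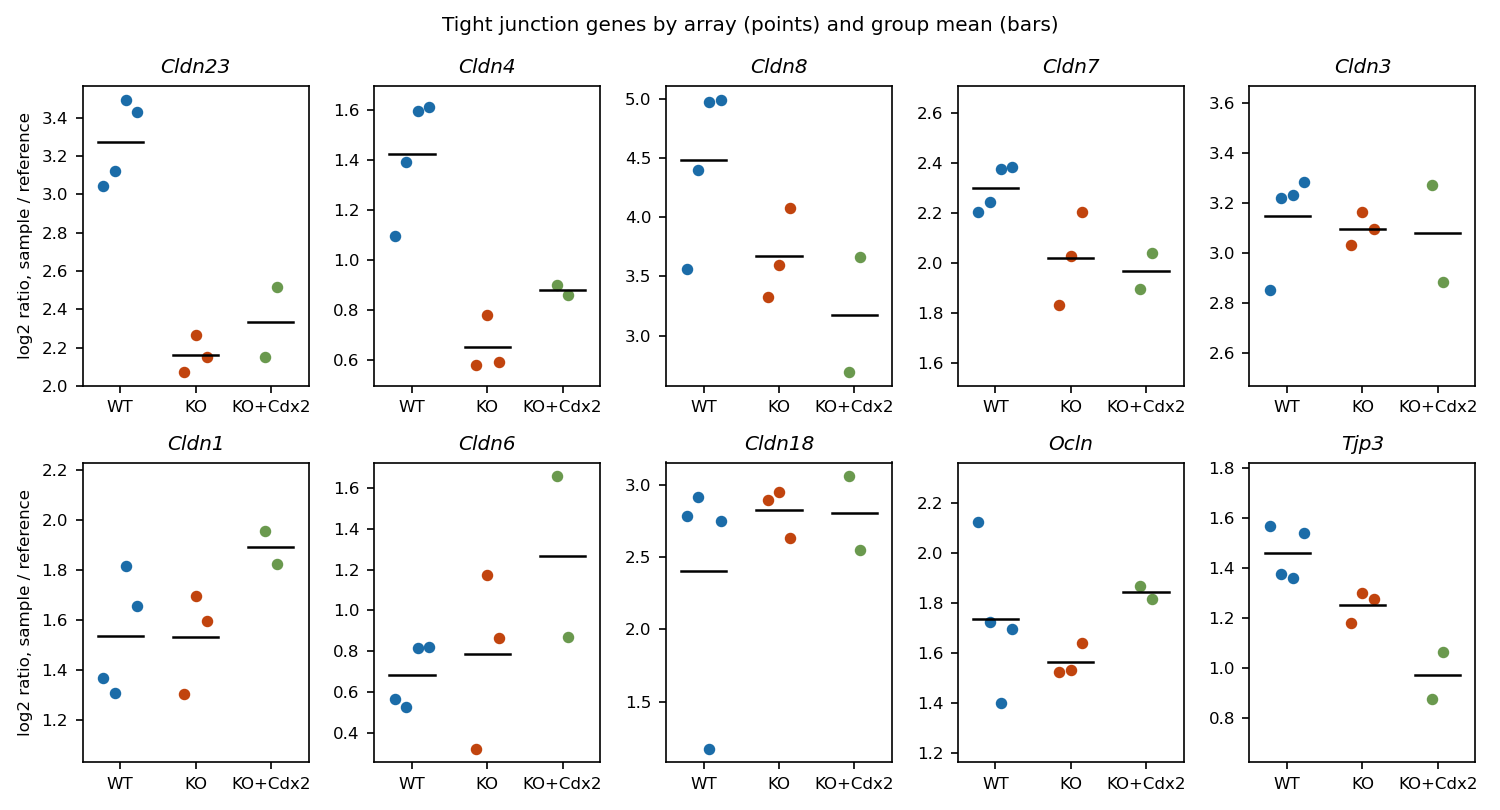
Log2 ratio of sample over reference for the 10 genes, 1 panel per gene with its own vertical axis; points are arrays (wild type 4, p63 knockout 3, p63 knockout with Cdx2 2) and bars are group means. Cldn23 and Cldn4 show wild type points above all points of both knockout groups, Tjp3 steps down from wild type to knockout to knockout with Cdx2, and 1 wild type point of Cldn18 lies far below the others.

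The first comparison asked which tight junction genes differ in the esophagus without p63. Cldn23 and Cldn4 were lower in the knockout, by 2.16-fold and 1.71-fold in the log ratio, and none of the 10 genes was higher. Among all 22652 genes tested, 0.706% were called lower and 0.106% higher at a limma adjusted p under 0.05. For 8 of the 10 genes the difference was below 0 in the log ratio, and for 6 of the 10 in the sample channel. The 8 include Cldn1 at -0.003, Cldn3 at -0.05 and Cldn8, whose ratio gives no direction for a reason given below. The median of the 10 was -0.19 in the log ratio, beside 0.01 over all genes, and -0.28 in the sample channel, beside 0.001. In the log ratio 4 of the 10 genes (Cldn23, Cldn4, Cldn7 and Tjp3) had every knockout array below every wild type array, which held for 6.11% of all genes. In the sample channel alone Cldn23 and Cldn4 were again the genes called lower, beside 1.14% of all genes. The 10 genes were chosen with earlier results of these arrays known. Their counts and medians, here and in the other comparisons, therefore describe this set only.

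Cldn23, a claudin whose role is little characterised (probe at chr8:36888151-36888210, mm9), showed the clearest difference. Its log2 ratio was 3.04, 3.12, 3.49 and 3.43 in wild type, 2.07, 2.27 and 2.15 without p63, and 2.15 and 2.52 where Cdx2 was added. No knockout array of either kind reached the lowest wild type array. The difference between knockout and wild type was -1.11 (SE 0.14, adjusted p = 0.00837, limma).

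In the sample channel Cldn23 fell further than in the ratio. Its signal over background was 1577, 1615, 1807 and 2197 in wild type and 553, 717 and 649 in the knockout. After normexp with its offset, loess and Aquantile the log2 difference of this channel was -1.78 (SE 0.16, adjusted p = 0.00102, limma) or 3.43-fold. The reference channel, which holds the same RNA on every array, did not stay level at this probe: its signal over background was 75.6 to 90.3 in wild type and 34.4 to 47.2 in the knockout. After the same normalization the log2 difference of the reference was -0.67. Over all genes the reference difference between these groups ran from -0.23 at the 5th percentile to 0.29 at the 95th, and across genes it correlated with the sample difference at r = 0.78; genes are not independent replicates. With the ratios written by the scanner software, made from its own background-subtracted signals, the Cldn23 difference was -0.36 (adjusted p = 0.523, limma). Those ratios differ in the background correction and in the dye normalization, and which of them moved the Cldn23 value was not tested.

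Cldn4, a claudin of many simple and stratified epithelia, was the other gene called. Its log2 ratio was 1.10, 1.39, 1.60 and 1.61 in wild type, 0.58, 0.78 and 0.59 without p63, and 0.90 and 0.86 where Cdx2 was added. Wild type was above both knockout groups on every array. The difference in the knockout was -0.77 (SE 0.13, adjusted p = 0.0366, limma), and in the sample channel it was -0.96 (SE 0.17, adjusted p = 0.0284, limma).

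Cldn4 was a dim probe. Its sample signal over background was 163 to 295 in wild type, 81.0 to 147 without p63, and 121 and 135 with Cdx2, and its reference signal was well above background on 2 of the 9 arrays. The scanner software's ratios gave a larger difference, -1.55 (adjusted p = 0.00957, limma), but almost none between the knockout with Cdx2 and wild type, as given below. The call was lost when wild type replicate 2 (adjusted p = 0.109), 3 (0.106) or 4 (0.113), or knockout replicate 1 (0.149), 2 (0.0972) or 3 (0.174), was left out, and by limma with a trended and robust prior (0.0507). That of Cldn23 was lost without knockout replicate 3 (adjusted p = 0.0502, limma).

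Both calls also depended on which spots entered the fit of the background parameters. On wild type replicate 3, 4 spots had a local background over 1000 in the sample channel, and with all spots in that fit the Cldn23 difference was -0.80 (adjusted p = 0.436, limma) and that of Cldn4 -0.52 (adjusted p = 0.617, limma). The values above leave out spots flagged as outliers on every array, a choice made after the effect had been seen. Without wild type replicate 3 altogether, Cldn23 was still called and Cldn4 was not.

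Cldn4 and Cldn3 are neighbours on chromosome 5, their probes 41.8 kb apart (build mm9), at chr5:135421347-135421406 on the minus strand and chr5:135463179-135463238 on the plus strand. Cldn3, a claudin of simple epithelia, was not called. Its log2 ratio was 2.85, 3.22, 3.23 and 3.28 in wild type, 3.03, 3.16 and 3.1 without p63, and 3.27 and 2.88 with Cdx2. The 3 groups overlapped, and the difference between knockout and wild type was -0.05 with a 95% interval from -0.35 to 0.25. Its sample signal was high, 4625 to 8484 over background in wild type and 8990 to 10190 in the knockout.

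Because 1 gene of this pair was called and the other was not, the 250 bases before the RefSeq start of each are shown (build GRCm38.p6), Cldn4 at chr5:134946935-134947184 on the minus strand and Cldn3 at chr5:134985964-134986213 on the plus strand. Both read 5′ to 3′ towards the gene, and capitals mark the matches found.
Cldn4: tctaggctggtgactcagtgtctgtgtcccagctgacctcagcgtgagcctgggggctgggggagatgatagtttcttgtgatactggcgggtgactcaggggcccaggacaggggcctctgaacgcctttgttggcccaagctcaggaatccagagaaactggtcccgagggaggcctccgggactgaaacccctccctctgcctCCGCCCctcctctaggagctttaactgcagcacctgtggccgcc
Cldn3: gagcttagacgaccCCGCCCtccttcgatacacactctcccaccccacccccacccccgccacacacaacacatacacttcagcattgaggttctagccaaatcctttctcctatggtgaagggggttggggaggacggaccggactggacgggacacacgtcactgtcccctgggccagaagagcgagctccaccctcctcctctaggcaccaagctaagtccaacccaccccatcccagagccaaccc

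Each holds 1 match to GGGCGG, the core of a GC box, on the opposite strand; it begins 44 bases before the start in Cldn4 and 236 bases before it in Cldn3. Searched on both strands, GGGCGG occurs in 32.7% of the 32851 promoter windows of this length, TATAAA in 12.4%, AACNGGTT, a Grainyhead motif, in 1.79% and the p53 family half-site in 7.13%. TATAAA, AACNGGTT and the p53 family half-site had no match in either window. Windows were at hand for 8 of the 10 genes, 12 windows in all, not for Cldn8 and Cldn23. The p53 family half-site had 1 match among them, in 1 of the 2 windows of Cldn18, 119 bases before the start.

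Tjp3, the zonula occludens protein found mainly in epithelia (probe at chr10:80736550-80736609, mm9), had log2 ratios of 1.57, 1.37, 1.36 and 1.54 in wild type, 1.18, 1.30 and 1.28 without p63, and 0.88 and 1.06 where Cdx2 was added. In the ratio the groups did not overlap and lay in this order, while in the sample channel the 2 knockout groups overlapped. The knockout differed from wild type by -0.21 in the ratio (SE 0.09, adjusted p = 0.501, limma), which did not pass. The 95% interval of -0.40 to -0.02 belongs to a bright probe, with a sample signal of 3005 to 5627 over background in wild type.

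Cldn7, a claudin that also lies along the lateral membrane (probe across a splice junction, chr11:69780780-69781089, mm9), had log2 ratios of 2.20, 2.24, 2.37 and 2.38 in wild type, 1.83, 2.03 and 2.20 without p63, and 1.90 and 2.04 with Cdx2. The highest knockout array almost reached the lowest wild type array. The difference of -0.28 (SE 0.10, 95% interval -0.51 to -0.05) did not pass at an adjusted p = 0.416 (limma), and in the sample channel the 2 groups overlapped.

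Cldn8, a claudin known from the distal nephron and colon (probe at chr16:88561135-88561194, mm9), varied most among the claudins lower in the mean. Its log2 ratio was 3.56, 4.40, 4.98 and 5.0 in wild type, 3.33, 3.60 and 4.08 without p63, and 2.69 and 3.67 with Cdx2. Wild type replicate 1 lay among the knockout arrays. The difference between knockout and wild type was -0.82 with a 95% interval of -1.70 to 0.07 (adjusted p = 0.584, limma). None of the 9 arrays had a reference signal well above background at this probe, and with the scanner software's ratios the difference was 0.35 (adjusted p = 0.894, limma), so the ratio gives no direction. In the sample channel it was -1.01 (95% interval -1.99 to -0.03, adjusted p = 0.289, limma).

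Cldn1, the main claudin of the epidermal barrier, lies near Trp63 on chromosome 16; their probes were 465.4 kb apart. By its brighter probe, whose reference signal was well above background on 2 of the 9 arrays, the log2 ratio was 1.37, 1.31, 1.82 and 1.66 in wild type, 1.31, 1.70 and 1.60 without p63, and 1.96 and 1.83 with Cdx2. Knockout and wild type overlapped, with a difference of 0.00 and a 95% interval of -0.34 to 0.33. The other Cldn1 probe gave 0.05 (95% interval -0.41 to 0.52). Tprg, on the other side of Trp63 at 469.7 kb, was lower by 2.84 on the log2 scale (log2 difference -2.84, SE 0.11, adjusted p = 2.26e-05, limma). Of the 9 genes measured near Trp63, apart from Cldn1, Tprg and Trp63 itself were called lower and none higher, beside 0.706% of all genes called lower.

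Occludin had log2 ratios of 2.13, 1.73, 1.40 and 1.70 in wild type, 1.52, 1.53 and 1.64 without p63, and 1.87 and 1.82 with Cdx2. All knockout arrays lay within the wild type range, and the difference was -0.17 with a 95% interval of -0.51 to 0.17. These values come from a probe 2340 bases into the transcript. A second Ocln probe, which lies in the coding part and crosses a splice junction (chr13:101309849-101311042, minus strand, mm9), did not rise well above background on any of them, with 5.65 to 21.3 over background; its sequence is shown because the 2 probes of this gene differ in whether they gave a signal.
Ocln coding probe: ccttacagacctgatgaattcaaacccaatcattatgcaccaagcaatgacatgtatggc

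Cldn6, a claudin of embryonic epithelia, had log2 ratios of 0.56, 0.53, 0.81 and 0.82 in wild type and 0.32, 1.17 and 0.87 in the knockout. The knockout arrays lay on both sides of wild type, and the difference of 0.11 had a 95% interval of -0.43 to 0.64. Its wild type signal was among the dimmest, 61.9 to 118 over background.

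**Figure D2:**
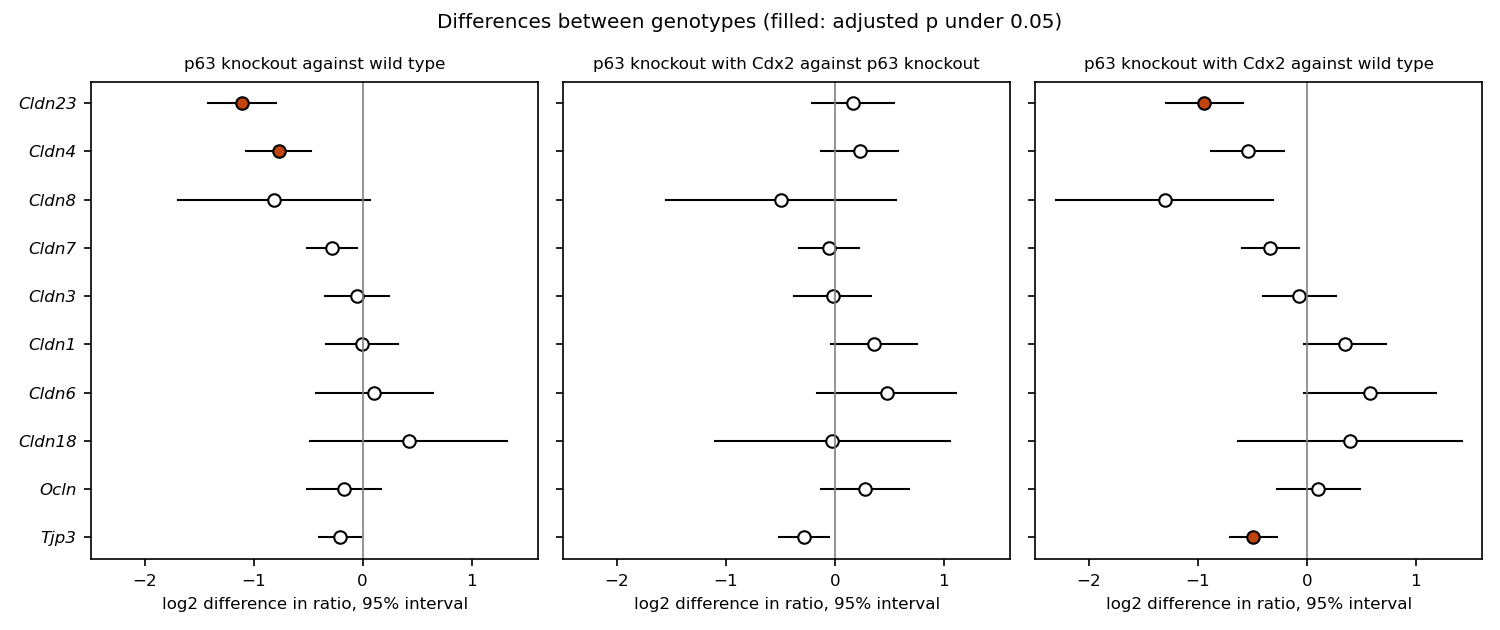
Log2 difference in the ratio between genotypes for the 10 genes, with 95% intervals from limma, in the 3 comparisons; filled points have an adjusted p under 0.05. Cldn23 is filled in both comparisons with wild type, Cldn4 in the first and Tjp3 in the third; the middle panel has no filled point.

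The second comparison asked what the Cdx2 transgene adds when p63 is absent. In the log ratio none of the 10 genes was called, nor was any of the 22651 genes tested (0% called, lowest limma adjusted p = 0.0817); 3182 genes had an unadjusted p under 0.05, among them 1 of the 10. That was Tjp3, 0.88 and 1.06 with Cdx2 against 1.18 to 1.30 without, a difference of -0.28 (SE 0.10, 95% interval -0.51 to -0.05, adjusted p = 0.303, limma). In the sample channel 0.296% of genes were called and again none of the 10. With 2 arrays against 3, the arrays of 14.0% of all genes were all higher, and of 18.1% all lower, in the transgenic group. Cldn1, Cldn4 and Ocln were among the former and Tjp3 among the latter, shares that say little about these genes.

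The intervals of this second comparison were wide. By its brighter probe Cldn1 differed by 0.36 (95% interval -0.04 to 0.76), but by its other probe by 0.09 (-0.46 to 0.65) with overlapping groups. Cldn4 differed by 0.23 (-0.12 to 0.58) and Ocln by 0.28 (-0.13 to 0.68). Cldn6 differed by 0.48 (-0.16 to 1.12), with 1.66 and 0.87 on the 2 transgenic arrays, of which the second lay within the knockout range. Cldn23 differed by 0.17 (-0.21 to 0.55), Cldn7 by -0.05 (-0.33 to 0.22) and Cldn3 by -0.02 (-0.37 to 0.34). For Cldn8 and Cldn18 the intervals of -1.55 to 0.56 and -1.10 to 1.06 left differences of about the size seen against wild type within them. The spread behind all these intervals was estimated over all 9 arrays, so the wild type arrays also set their width. The SD of the Cldn18 ratio was 0.83 in wild type, 0.17 without p63 and 0.36 with Cdx2. For Cldn8 it was 0.67, 0.38 and 0.69 in the same order. A gene not called here is thus not shown to be the same with and without Cdx2.

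The third comparison set the knockout with Cdx2 against wild type; it uses the same wild type arrays as the first, so the 2 are not independent. Cldn23 and Tjp3 were lower, by 1.92-fold and 1.41-fold, and none of the 10 genes was higher. Among 22654 genes 2.39% were called lower and 1.17% higher. The median difference of the 10 genes was -0.20 beside -0.02 over all genes. Below 0 were 6 of the 10, among them Cldn8, whose ratio gives no direction. Cldn23, Cldn4, Cldn7 and Tjp3 had both transgenic arrays below all wild type arrays, which held for 16.9% of all genes, and Cldn6 and the brighter probe of Cldn1 had both above, which held for 14.1%; by the other Cldn1 probe the groups overlapped.

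For Cldn23 the difference was -0.94 (SE 0.16, adjusted p = 0.0215, limma), and in the sample channel -1.59 (SE 0.18, adjusted p = 0.00441, limma), where 1.92% of all genes were called lower. Its reference signal, 31.3 and 40.1 over background with Cdx2, was again below that of wild type, and the scanner software's ratios gave -0.10 (adjusted p = 0.774, limma). The call in the ratio was also lost without wild type replicate 4 (adjusted p = 0.0645), without knockout with Cdx2 replicate 1 (0.102), without background correction (0.0609), with only the 2 groups in the limma fit (0.0543), and with all spots in the background fit (-0.63, adjusted p = 0.293).

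For Tjp3 the difference was -0.49 (SE 0.10, adjusted p = 0.034, limma), close to the threshold. It passed in 7 of 22 alternative settings, among them 2 of the 9 that leave out 1 array, and its differences over all 22 ran from -0.63 to -0.38. In the sample channel it was -0.63 (SE 0.21, adjusted p = 0.141, limma). The direction was the same throughout, and the call was not.

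Cldn4, called in the knockout without the transgene, differed from wild type by -0.54 with Cdx2 (SE 0.15, adjusted p = 0.0828, limma); without wild type replicate 1 it passed, at -0.65 (adjusted p = 0.0268, limma). The scanner software's ratios put this difference at 0.00. The interval of the difference between the 2 knockout groups, given above, holds 0, so the call in one of them only does not show that Cldn4 differs between them. For Cldn8, whose ratio gives no direction, the sample channel differed by -1.45 (95% interval -2.56 to -0.34, adjusted p = 0.141, limma), which did not pass, and the groups overlapped. Cldn7 differed by -0.33 (95% interval -0.59 to -0.07, adjusted p = 0.139, limma), and Cldn1 by 0.36 (-0.02 to 0.73) and 0.15 (-0.38 to 0.67) in its brighter and its other probe. Cldn6 differed by 0.58 in the ratio (-0.03 to 1.19) and by 1.27 in the sample channel (0.25 to 2.28, adjusted p = 0.154, limma), while its reference channel moved by 0.68. Cldn3 and Ocln differed by -0.07 (-0.41 to 0.27) and 0.11 (-0.28 to 0.49).

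**Figure D3:**
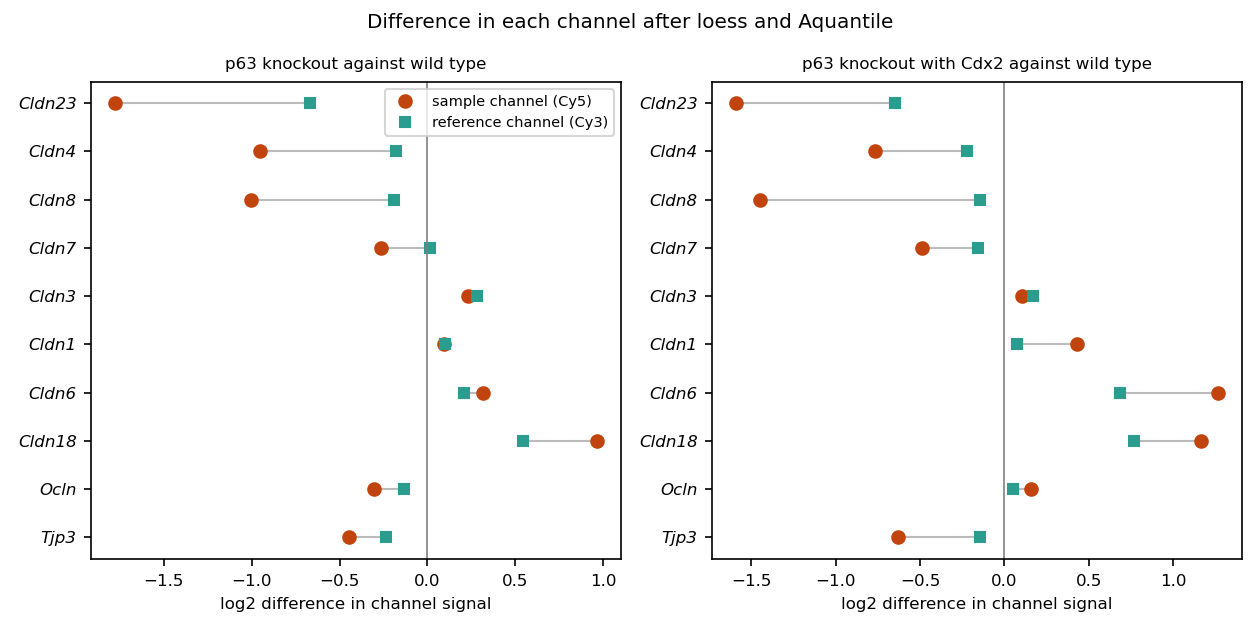
Log2 difference from wild type in the sample channel (circles) and in the reference channel (squares) for the 10 genes, after loess and Aquantile normalization, in the knockout (left) and in the knockout with Cdx2 (right). The reference moved in the same direction as the sample for 9 of the 10 genes on the left and 10 of 10 on the right, with the largest reference shifts of the 10 at Cldn23 on the left and at Cldn18 on the right. Over all genes the sample and reference differences correlated at r = 0.78 on the left and 0.72 on the right. The share of all genes moving in the same direction was not counted.

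Cldn18, a claudin with lung and stomach forms, differed more within wild type than between genotypes. Its sample signal over background was 12860, 3409, 197 and 2333 on wild type arrays 1 to 4, a 65.2-fold span. In the knockout it was 4592, 8140 and 4921, and with Cdx2 6933 and 5175. The log2 ratio spanned less: it was 2.79, 2.92, 1.17 and 2.75 in wild type, 2.90, 2.95 and 2.63 without p63, and 3.06 and 2.55 with Cdx2. The reference signal at this probe moved along, from 1239 on wild type array 1 to 33.9 on wild type array 3, and made up 5.85% to 17.2% of the sample signal over the 9 arrays. The highest share was that of wild type array 3, and without this array the highest was 9.6%.

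Between knockout and wild type Cldn18 differed by 0.42 in the ratio (95% interval -0.48 to 1.33) and by 0.97 in the sample channel (-1.56 to 3.49), neither of them called. Markers of neighbouring organs differed between the same arrays. The log2 summed signal of 9 stomach markers was 18.05 on wild type array 1, where all 9 were well above background, and 11.05 to 11.30 on the other 3, where 7 of them were; Gkn1 was at background level throughout. In the knockout it was 13.14 to 14.48, and with Cdx2 11.40 and 13.30. The sum of the 10 airway and lung markers was 19.67, 20.30, 19.53 and 19.97 on wild type arrays 1 to 4, lowest on array 3, 19.80 to 20.32 without p63, and 19.05 and 20.06 with Cdx2. A sum follows its brightest members, and the median log2 signal of these markers spread more. That median was 13.4, 14.5, 12.1 and 13.6 in wild type, 15.1, 13.5 and 12.9 without p63, and 10.5 and 13.6 with Cdx2. The sum of the 6 thyroid markers was 17.64 and 16.95 on wild type arrays 3 and 4 against 10.09 and 9.78 on arrays 1 and 2. Without p63 it was 13.06, 16.22 and 16.41, and with Cdx2 9.39 and 12.59. The part of these tissues in the Cldn18 signal was not tested.

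**Figure D4:**
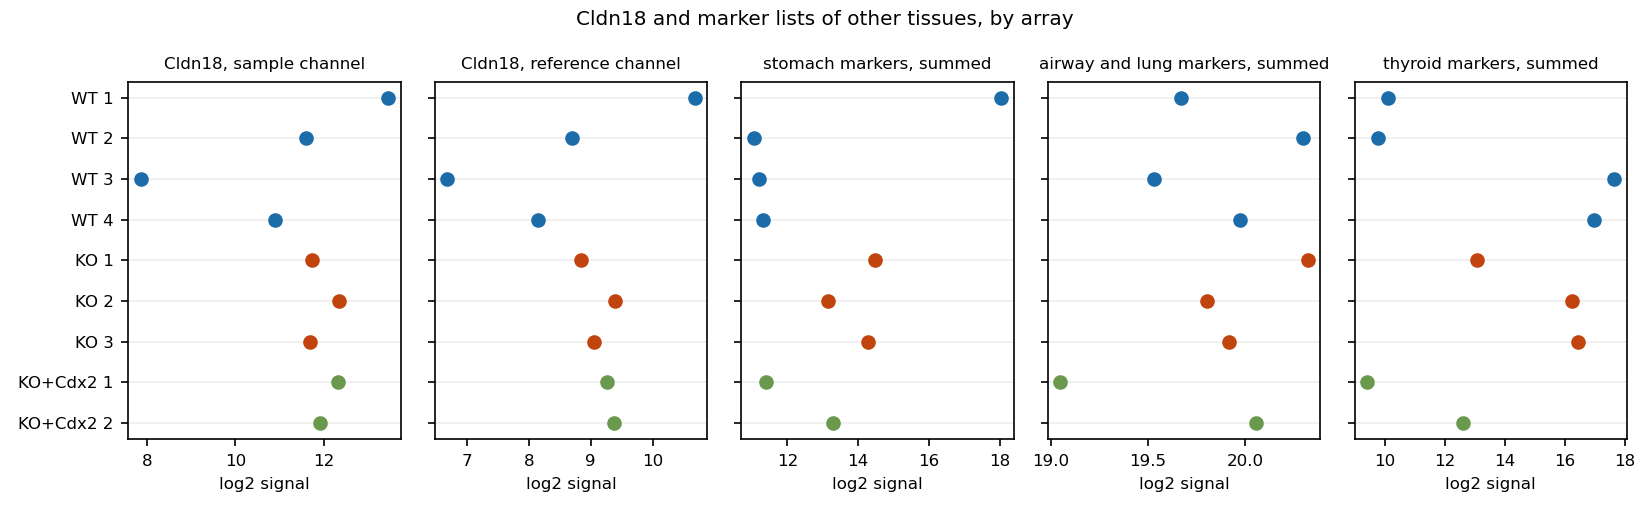
Log2 signal of Cldn18 in the sample and reference channels and log2 summed sample signal of the stomach (9), airway and lung (10) and thyroid (6) markers on each of the 9 arrays, with a separate horizontal axis per panel. Wild type array 1 is highest for Cldn18 and for the stomach markers, wild type array 3 is lowest for Cldn18 and highest for the thyroid markers.

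For each of the 10 genes the 3 genes with the most similar log2 ratios over the 9 arrays were sought among 15481 genes well above background on all arrays; the r values describe these 9 arrays, which share slides by genotype, and carry no test. Closest to Cldn4 was Trp63 (r = 0.97 over all arrays, 0.85 with the genotype means taken out), followed by Sesn2 and Celsr2. Both Cldn4 and Trp63 were called lower in the knockout, so the r over all arrays includes that genotype difference. The Cldn4 reference signal was well above background on 2 of the 9 arrays, which limits its r values. Closest to Cldn23 were Gltp, a glycolipid transfer protein (r = 0.98, 0.96 within genotypes), Lgi2 and Serpinb5, the squamous serpin maspin (0.97, 0.75 within genotypes). Cldn8 was followed most closely by Bmp7 (r = 0.98, 0.97 within genotypes), Osr2 and Adam28. Its reference signal was well above background on 0 of the 9 arrays, which limits these r values. The nearest to Cldn18 were Rbpjl (r = 0.98), Tinag and Enpep, and those to Cldn7 were Apcdd1 (r = 0.97), Sptlc3 and Adgrf1. The Cldn18 ratio was 1.17 on wild type array 3 and 2.55 to 3.06 on the others, so its r values rest largely on that array.

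Tjp3 was most like Misp (r = 0.98), an actin-binding protein of the mitotic spindle, Nell2 and Fam162a. For Cldn1 the 3 were Zfp507 (r = 0.98), Vrk2 and Nedd8, for Cldn3 Tmed1 (0.97), Ppp1r3c and Lmcd1, for Cldn6 Skida1 (0.98), Wdr89 and Lsm2, and for Ocln Golga7 (0.97), Vta1 and Pgm2. Among the 10 genes themselves the closest pair over all arrays, genotype differences included, was Cldn4 and Cldn23 (r = 0.96, 0.74 within genotypes). Within genotypes it was Cldn8 and Cldn23 (0.86), then Cldn7 and Cldn8 (0.81). Over all arrays Cldn8 and Cldn18 ran most opposed (r = -0.60), and within genotypes Cldn4 and Ocln (-0.84). The limits given for the r values of Cldn4, Cldn8 and Cldn18 hold for their pairs as well.

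The remaining claudins were not called in any of the 3 comparisons: 11 of 18 listed names were measured, and 0 of 11 passed in the log ratio or in the sample channel. Their median difference between knockout and wild type was 0.04. The lowest p in that comparison was that of Cldn2, a pore-forming claudin of leaky epithelia, with log2 ratios of 0.16, 0.13, 0.60 and 0.70 in wild type and 1.52, 0.71 and 1.71 in the knockout. The groups did not overlap, though the second knockout array lay close to wild type, and the difference was 0.92 (SE 0.26, 95% interval 0.32 to 1.52, adjusted p = 0.26, limma). Its wild type signal was dim, 33.28 to 99.95 over background, and on wild type array 1 it was not well above background. With Cdx2 the lowest p was that of Cldn22 against the knockout (-0.68, SE 0.41) and of Cldn12 against wild type (-0.14, SE 0.08), neither passing (adjusted p = 0.472 and 0.316, limma).

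Of 18 other membrane proteins of the tight junction, 0 were called in the knockout and 2 were lower in the knockout with Cdx2 against wild type. Over all genes 0.706% and 2.39% were called lower in these 2 comparisons. F11r, the junctional adhesion molecule JAM-A, was lower with Cdx2 than in wild type by 0.83 on the log2 scale (log2 difference -0.83, SE 0.16, adjusted p = 0.0337, limma). The call was not kept in the sample channel (-0.80, adjusted p = 0.0619, limma). Its log2 ratio was -0.11 and -0.39 with Cdx2, against 0.33 to 0.74 in wild type and 0.55, 0.15 and 0.50 in the knockout. It also had the lowest p of this list between the 2 knockout groups, at -0.65 (SE 0.17), which did not pass (adjusted p = 0.252, limma). Of 33 plaque and polarity proteins 0 were called in any comparison; the lowest p belonged to Pard6g in the knockout (-0.50, SE 0.11, adjusted p = 0.103, limma), to Prkcz, the polarity kinase, between the knockout groups (-0.35, SE 0.13) and to Tjap1 with Cdx2 against wild type (-0.43, SE 0.10, adjusted p = 0.0579, limma).

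Among 12 adherens junction genes 1 was lower in the knockout and 2 were lower in the knockout with Cdx2, beside 0.706% and 2.39% of all genes. Nectin1, an adhesion receptor of the adherens junction, had log2 ratios of 1.12 to 1.31 in wild type, 0.52 to 0.65 without p63, and 0.59 and 0.61 with Cdx2. The differences from wild type were -0.62 in both groups (SE 0.08, adjusted p = 0.00762, and SE 0.09, adjusted p = 0.00972, limma). Jup, plakoglobin of adherens junctions and desmosomes, was lower with Cdx2 by 0.60 (log2 difference -0.60, SE 0.10, adjusted p = 0.0221, limma).

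Of 19 regulators tied to epithelial junction genes, among them transcription factors that activate or repress such genes and splicing regulators, 2 were lower in the knockout: Klf5 by 0.62 (log2 difference -0.62, SE 0.08, adjusted p = 0.0118, limma) and the splicing regulator Esrp1 by 0.63 (log2 difference -0.63, SE 0.10, adjusted p = 0.0253, limma). With Cdx2, 3 were lower than wild type: Elf3 (-1.23, adjusted p = 0.0215), Klf4 (-0.99, adjusted p = 0.0333) and Klf5 (-0.94, adjusted p = 0.00215, limma). In the sample channel Klf4 did not pass with Cdx2 (-0.97, adjusted p = 0.0514, limma), and Ovol1 was also lower in the knockout (-1.30, adjusted p = 0.0359, limma). Beside these counts, 0.706% of all genes were called lower in the knockout and 2.39% in the knockout with Cdx2. None of these lists had a member called higher in the ratio, or any member called between the 2 knockout groups. Their names were chosen with earlier results of these arrays known, so the counts describe the lists only.

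**Figure D5:**
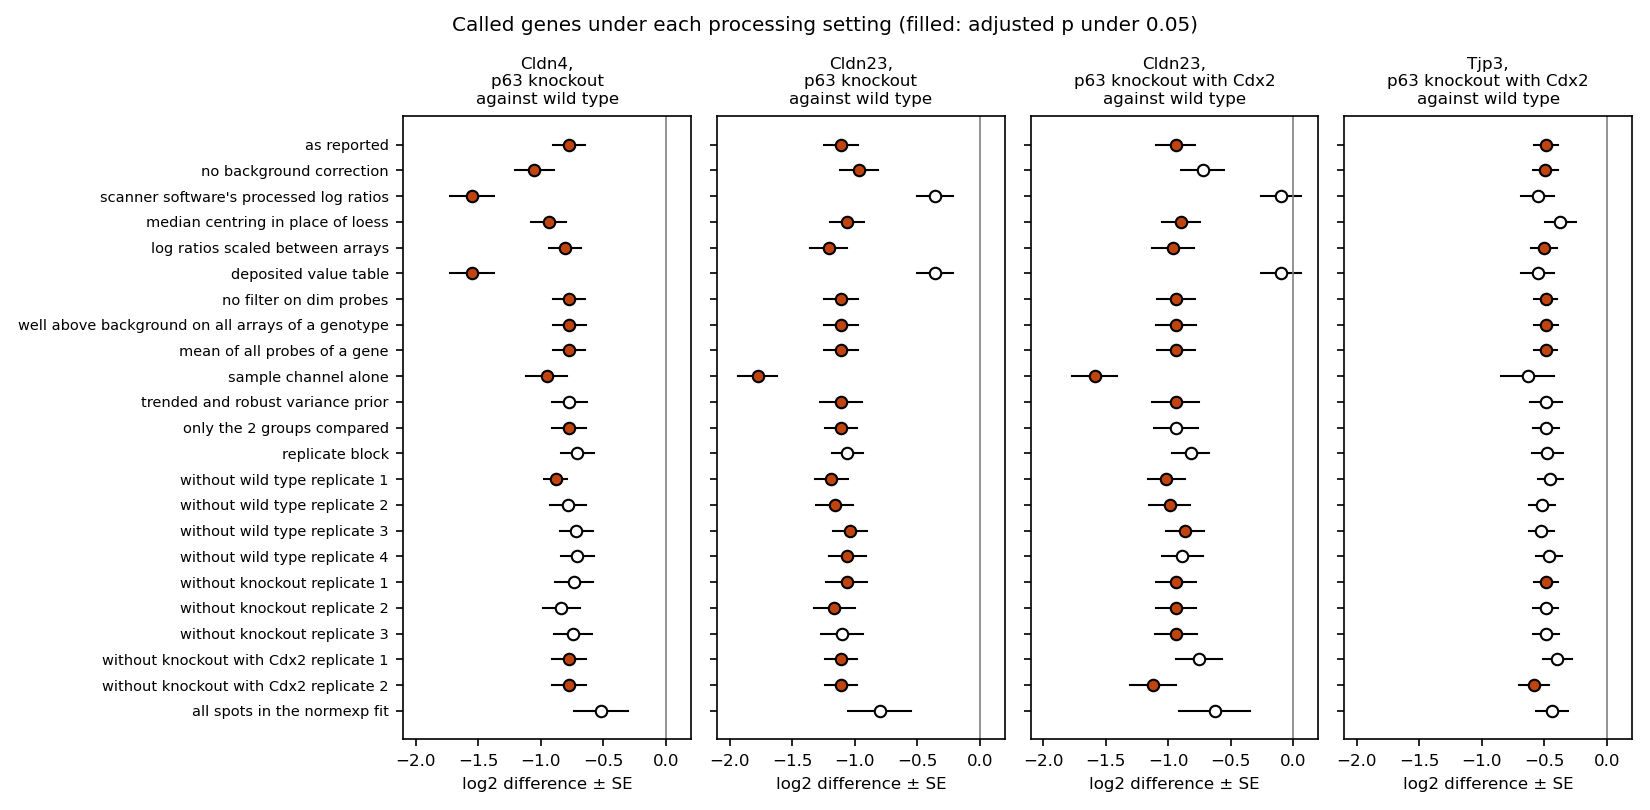
Log2 difference ± SE of the 4 called results under each processing setting, 1 setting per line; filled points have an adjusted p under 0.05. All points lie below 0; Cldn23 moves towards 0 with the scanner software's ratios and the deposited value table and away from 0 in the sample channel, while Cldn4 moves the opposite way with the former.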

How the data were processed

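The deposited scanner files give, per the file headers, mean intensities of spots and their local background in both channels (Feature Extraction 10.7.3.1, although 9.1 stands in the submitters' processing notes), and a log10 ratio of background-subtracted, dye-normalized signals. The deposited value table holds log2 ratios that follow this log10 ratio (r of 0.992 or more per array); its centring is not given in the sources used here. Ratios run as Cy5 over Cy3, and no dyes were swapped.

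Per file 45018 spots were read, 1639 of them controls. Background was corrected by normexp (offset 50), its parameters fitted without spots flagged as outliers, and ratios by loess within arrays; flagged feature spots (119 to 171 per array) were left out and 0 sample spots were saturated. The fit without flagged spots was chosen after the values had been seen; that with all spots is an added alternative. Probes well above background on 2 or more of 9 arrays were kept (33761), and a gene was read from its brightest probe. Names came from accessions (26918), symbols or synonyms (5899, RefSeq of GRCm38.p6) or the file (8357); coordinates are mm9. All 9 arrays entered 1 limma model (limma 3.58.1, R 4.3.3) with Benjamini-Hochberg adjustment over all genes at 0.05. The model was also run on simulated data with independent noise per gene. These held no slide effect and no shift of the reference channel, so that run does not cover such effects. Arrays give no counts, so their number limits the precision. Intervals are 95% intervals of the fit. Every one of the 10 genes is named; from each other list up to 3 called genes per direction, or else the one with the lowest p. The genes and lists were chosen with earlier results of these data known. Promoters are those of RefSeq. One gene that the naming rule would give is not reported here.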

Additional observations from a re-analysis of the deposited data

Results flagged for a closer look

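Of 20 checks for a far-off array within the wild type group (10 genes, ratio and sample channel), 2 met Dixon's 95% limit for 4 samples; chance flags about 1 in 20 such groups. The Cldn18 log2 ratio was 1.17 on wild type array 3 against 2.75 to 2.92 on the other 3. The Cldn3 log2 ratio was 2.85 on wild type array 1 against 3.22 to 3.28 on the others.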

How the results depend on the processing

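The comparisons A (knockout and wild type), B (knockout with Cdx2 and knockout) and C (knockout with Cdx2 and wild type) called 2, 0 and 2 of the 10 genes and 184, 0 and 806 of all genes. No called difference changed its direction under any alternative, and no alternative called a gene of the 10 in comparison B. The scanner software's ratios gave 1 and 0 of the 10 genes in comparisons A and C, and 5 and 396 of all genes in B and C; the deposited value table gave 1 and 0, and 4 and 398. In comparison C 1 of the 10 genes was left without background correction, with median centring and in the sample channel alone, and 0 with only the 2 groups compared. The sample channel called 445 and 67 of all genes in A and B, and fits of only the 2 groups compared called 299 and 444 in A and C. A trended and robust prior left 1 of the 10 genes in each comparison with wild type, and called 1 of all genes in B. Leaving out 1 array at a time gave 0 to 2 of the 10 genes in either comparison with wild type, and 84 to 299, 0 to 114 and 244 to 1177 of all genes in the 3 comparisons; the lowest counts came without knockout replicate 2 in A, and without wild type replicate 2 or 4 in C. With all spots in the normexp fit, an alternative added after the data were seen, 0 and 0 of the 10 genes and 74 and 319 of all genes were called in A and C. The causes of these shifts were not tested.

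Replicate numbers were shared between groups. The deviations of same-numbered arrays had r from -0.13 to 0.28 (7 pairs), against -0.25 to 0.23 for the 19 other pairs. With 2 to 4 arrays per group, these values cannot decide whether the numbers pair the samples. With the replicate block 0 and 0 of the 10 genes and 53 and 37 of all genes were called in comparisons A and C. A reference signal that was well above background on few or none of the 9 arrays limits the ratios of Cldn8 (0), Cldn1 (2), Cldn4 (2) and Cldn6 (4), and the group of 2 arrays limits every comparison with Cdx2.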
